A study of Mus musculus with 4 samples.

Results

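The guanylate-binding proteins are described here through 8 genes, Gbp2 to Gbp9, taken by symbol from the gene tables of the study, which list 22620 genes. Immune cells had been taken from tumours of MC38, a mouse colon adenocarcinoma line, grown in wild-type (WT) mice or in knockout (KO) mice. After enzymatic digestion of the tumours, magnetic beads were used to enrich CD45-positive cells, and RNA was counted from its 3' end in droplets as unique molecular identifiers (UMIs). There were 2 WT and 2 KO libraries. The sources used here give no strain, age, time after implantation or number of animals per library, and a p-value therefore reflects the spread between libraries alone, which may be technical. Every level below is in CPM, the UMIs of a gene scaled to a total of 1000000 UMIs in the same sum.

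Guanylate-binding proteins are large GTPases of the dynamin superfamily whose genes are switched on by interferon gamma and less strongly by type I interferons. In infected macrophages they gather on bacteria and on parasite-containing vacuoles, break them open and expose microbial products to inflammasomes. In tumours, where no microbe need be present, their transcripts are read as a sign that a cell has sensed interferon.

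In the mouse the genes lie in a pair of clusters. On the mm10 build Gbp5 (chr3:142493978-142522344), Gbp7 (chr3:142530342-142550149), Gbp3 (chr3:142560026-142573209) and Gbp2 (chr3:142620602-142638008) follow each other on the plus strand of chromosome 3. Gbp8 (chr5:105014150-105139540), Gbp9 (chr5:105077630-105139539), Gbp4 (chr5:105115767-105139586) and Gbp6 (chr5:105270702-105293698) lie on the minus strand of chromosome 5, where the annotated spans of Gbp8, Gbp9 and Gbp4 overlap. The genes are alike enough for reads to be shared. Of all 50-base windows in the last 500 bases of its transcripts, Gbp6 shared 77.8% with other genes, which were Gbp10, Gbp9 and Gm43302. Gbp4 shared 19.4% with other genes, which were Gbp10, Gbp11, Gbp6, Gbp8, Gbp9 and Gm43302. The figure was 7.32% for Gbp8, 3.77% for Gbp9, 3.25% for Gbp3 and 1.62% for Gbp5, and no window of Gbp2 or Gbp7 was shared. The counts of Gbp6, and in part those of Gbp4, are uncertain for this reason.

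The start regions of the members on chromosome 3 are shown because the promoter sequences used here covered no other members. Letters to which interferon-activated factors are known to bind were searched for in each region. Each is 300 bases of RefSeq sequence on GRCm38.p6, plus strand, from 250 bases before a RefSeq start of the gene to 50 after it, and these starts are not the GENCODE starts given above: Gbp2 at chr3:142620413-142620712, Gbp7 at chr3:142530086-142530385, Gbp5 at chr3:142496684-142496983 and the first of the listed starts of Gbp3 at chr3:142559794-142560093. Capitals mark matches, on either strand, to a form of the interferon-stimulated response element and to TTCNNNGAA, the gamma-activated site.
Gbp2: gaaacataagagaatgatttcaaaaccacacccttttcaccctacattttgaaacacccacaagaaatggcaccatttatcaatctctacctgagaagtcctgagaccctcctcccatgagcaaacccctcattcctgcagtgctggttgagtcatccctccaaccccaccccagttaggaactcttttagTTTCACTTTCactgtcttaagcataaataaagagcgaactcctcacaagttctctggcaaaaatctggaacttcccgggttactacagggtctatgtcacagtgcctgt
Gbp7: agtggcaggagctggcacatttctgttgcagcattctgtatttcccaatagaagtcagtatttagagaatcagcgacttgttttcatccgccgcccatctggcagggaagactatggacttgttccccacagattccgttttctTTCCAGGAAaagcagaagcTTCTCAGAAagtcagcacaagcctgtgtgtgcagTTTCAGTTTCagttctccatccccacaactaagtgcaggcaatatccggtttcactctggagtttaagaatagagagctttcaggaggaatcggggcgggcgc
Gbp5: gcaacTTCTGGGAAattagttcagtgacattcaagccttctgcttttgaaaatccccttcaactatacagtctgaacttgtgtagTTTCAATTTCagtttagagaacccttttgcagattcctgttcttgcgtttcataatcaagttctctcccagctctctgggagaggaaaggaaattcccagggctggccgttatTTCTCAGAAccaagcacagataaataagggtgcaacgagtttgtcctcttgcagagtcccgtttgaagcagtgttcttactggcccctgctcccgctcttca
Gbp3: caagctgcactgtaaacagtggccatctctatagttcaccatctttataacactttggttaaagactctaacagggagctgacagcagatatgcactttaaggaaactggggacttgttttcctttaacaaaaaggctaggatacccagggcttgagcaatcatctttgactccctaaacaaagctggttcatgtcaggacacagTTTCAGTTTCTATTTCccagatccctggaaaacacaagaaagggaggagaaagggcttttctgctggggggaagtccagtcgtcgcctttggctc

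All 4 held the response element, and its first base lay at position -59 in Gbp2, -53 in Gbp7 and -165 in Gbp5, counted from the RefSeq start. In Gbp3 it occurred 2 times, with the matches overlapping. Gbp5 and Gbp7 also held 2 gamma-activated sites each, which did not overlap the response element. Among 32851 promoters of the same length in this table, 3.44% held the response element, 8.30% the gamma-activated site and 0.454% held both. The other listed start of Gbp3 held neither. A match of letters is a description of the sequence and not evidence of binding. RefSeq entries for the members on chromosome 5 were not used here.

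The libraries held 9239 and 9369 barcodes in WT and 18324 and 10344 in KO, with 94213071 and 112472244 UMIs in WT and 130466357 and 104900918 in KO. After filtering, 8664, 8815, 17207 and 9498 barcodes remained in WT 1, WT 2, KO 1 and KO 2, with median depths of 9905.5, 12133, 6052 and 8308 UMIs. From 21 to 49 barcodes were shared between any pair of libraries, at most 0.566% of the smaller one. Ptprc, the gene of CD45, stood at 371 and 363 CPM in WT and 532 and 457 CPM in KO over all barcodes. Barcodes were assigned to types by small sets of marker genes, and a type so formed is called gated. Markers that the gates had not used separated some gates better than others. A macrophage list of 6 genes summed to between 9864 and 16817 CPM in macrophage-gated barcodes. In CD8 T-gated barcodes it summed to between 507 and 1424 CPM. An NK list of 5 genes (Gzma, Nkg7, Prf1, Tyrobp and Klrk1) was at 3915 and 3744 CPM in NK-gated sums of WT. In neutrophil-gated sums of WT it was higher, at 4716 and 5544 CPM. A CD8 T list of 5 genes, of which Trac, Trbc2 and Lck are also in the CD4 T list, overlapped between the T cell gates in WT. It was at 4200 and 5091 CPM in CD8 T-gated and at 3747 and 4458 CPM in CD4 T-gated sums. In KO both lists were higher in their own gate than in these others.

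The family was studied first in macrophages, the cells named in the title of the study and the most numerous here, with 5116 and 5466 macrophage-gated barcodes in WT and 9886 and 4910 in KO. From 1.94% to 2.46% of them lay just above the limit of the gate, between 10 and 12 UMIs of complement C1q genes per 10000. All 8 members rose in KO macrophage-gated barcodes, against a background of 6.31% of 12596 genes called higher there (edgeR quasi-likelihood test on UMI sums per library, Benjamini-Hochberg adjusted p under 0.05). Their log2 changes ran from 0.90 for Gbp7 to 2.44 for Gbp4, with a median of 1.82 where the median over all genes tested was -0.01. Summed over the 8 members, the level was 237 and 265 CPM in WT and 802 and 635 CPM in KO.

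The make-up of the macrophage gate also differed between the genotypes. Barcodes with Fcrls and Cx3cr1 were 17.5% and 19.1% of all kept barcodes in WT and 2.45% and 3.30% in KO, and those with Arg1 and Inhba were 6.44% and 6.58% in WT and 21.1% and 20.4% in KO. In macrophage-gated sums a list of 5 neutrophil genes stood at 1798 and 1764 CPM in WT and at 3607 and 3306 CPM in KO, with 2 of 5 genes higher in both KO libraries. A list of 5 monocyte genes stood at 1264 and 781 CPM in WT and at 625 and 556 CPM in KO, with 1 of 5 higher in both KO libraries. No gene of these lists was at 0 in all libraries, and the part of either list in the change of the members was not tested.

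Gbp2, which is recruited to parasite vacuoles and bacteria in mouse macrophages, stood at 69.9 and 91.8 CPM in WT and at 346 and 268 CPM in KO, a log2 change of 2.05 ± 0.20 (SE, n = 2 libraries per genotype here and below, adjusted p = 0.00474). Gbp5, linked in mouse macrophages to assembly of the NLRP3 inflammasome, had 14.9 and 15.1 CPM in WT and 56.0 and 44.3 CPM in KO, a log2 change of 1.87 ± 0.13 (adjusted p = 0.000658). Both KO libraries were well above both WT libraries for each gene, and KO 1 was the higher of the KO pair.

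Gbp7, reported in mouse to help assemble the phagocyte NADPH oxidase, had the smallest change. It was at 79.3 and 78.5 CPM in WT and at 147 and 121 CPM in KO, a log2 change of 0.90 ± 0.11 (adjusted p = 0.00486). Gbp3, its neighbour in the chromosome 3 cluster, was at 25.5 and 28.3 CPM in WT and at 55.3 and 48.6 CPM in KO, a log2 change of 1.08 ± 0.11 (adjusted p = 0.00291). For both genes the WT libraries lay close together and the genotypes did not overlap.

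On chromosome 5, Gbp4, reported in mouse cells to restrain IRF7, had the largest log2 change of the 8 members. It was at 15.6 and 18.2 CPM in WT and at 91.5 and 76.5 CPM in KO, a log2 change of 2.44 ± 0.14 (adjusted p = 0.00045). Gbp6, whose protein is found on Toxoplasma vacuoles in mouse cells, was at 2.16 and 3.52 CPM in WT and at 13.5 and 11.7 CPM in KO, a log2 change of 2.26 ± 0.25 (adjusted p = 0.00628). Both rested on sequence shared in part with other members, and in both the KO libraries were several times the WT libraries.

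Gbp9 was at 11.7 and 11.3 CPM in WT and at 26.3 and 20.8 CPM in KO, a log2 change of 1.17 ± 0.12 (adjusted p = 0.00292). Gbp8 was at 17.4 and 18.1 CPM in WT and at 66.5 and 44.1 CPM in KO, a log2 change of 1.77 ± 0.20 (adjusted p = 0.00786). The KO libraries were further apart for Gbp8 than for Gbp9, again with KO 1 on top. Gbp8 lost its call without WT 1 (adjusted p = 0.113) and without WT 2 (adjusted p = 0.0694). The other 7 members passed whichever library was left out.

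**Figure D1:**
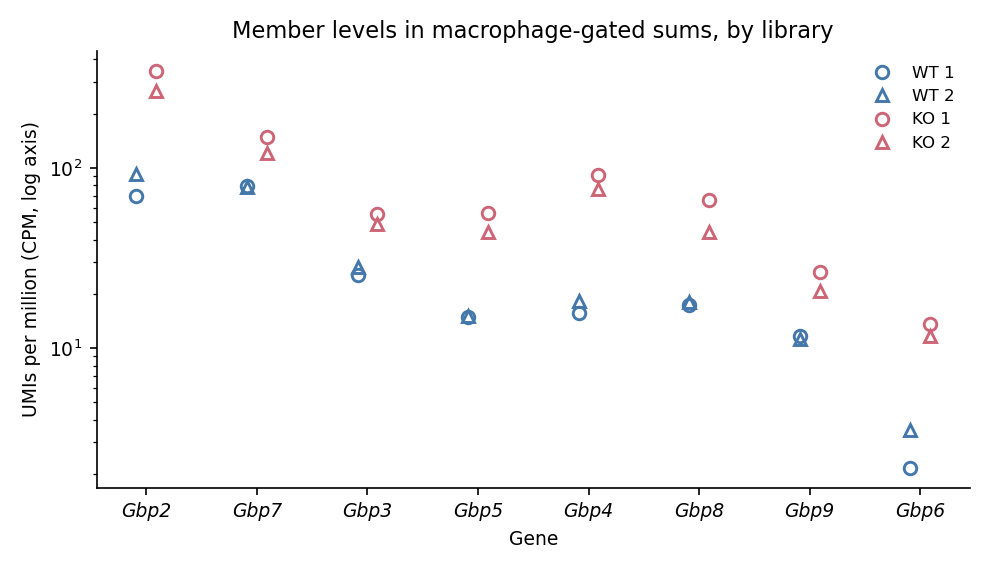
Level of each member in macrophage-gated sums, in CPM on a log axis, with 1 symbol for each of the 2 WT and 2 KO libraries. For every member both KO symbols lie above both WT symbols, from Gbp7 (79.3 and 78.5 CPM in WT, 147 and 121 CPM in KO) to Gbp4 (15.6 and 18.2 CPM in WT, 91.5 and 76.5 CPM in KO).

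The log2 changes are scaled by TMM, a factor fitted to the bulk of genes, and the CPM values by total UMIs. When macrophage-gated sums were scaled by total counts and not by TMM, the median over all genes moved from -0.01 to -0.14 on the log2 scale, and the calls went from 795 higher and 535 lower genes to 565 higher and 1158 lower. All 8 members remained higher and called under total counts, from 0.77 for Gbp7 to 2.31 for Gbp4. In plain CPM the genotypes did not overlap with KO higher for 16% of genes, and with KO lower for 49.2%.

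The make-up of the family's transcripts in macrophage-gated barcodes shifted with the level. Gbp2 gave 29.6% and 34.7% of member UMIs in WT and 43.1% and 42.2% in KO. Gbp4 gave 6.58% and 6.89% in WT and 11.4% and 12.1% in KO. The share of Gbp7 was 33.5% and 29.6% in WT and 18.4% and 19.0% in KO. These shares follow from the unequal changes given above and were not tested on their own.

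3 further symbols of the family are in the files. Gbp11, annotated as a polymorphic pseudogene on chromosome 5, was at 0.292 and 0.324 CPM in WT and at 2.43 and 1.72 CPM in KO macrophage-gated sums, a log2 change of 2.87 ± 0.30 (adjusted p = 0.00291), with 32.6% of its terminal windows shared with other genes. Gbp2b, the gene formerly called Gbp1, was at 0.893 and 0.338 CPM in WT and at 0.988 and 1.34 CPM in KO and missed the threshold (log2 change 1.08 ± 0.44, adjusted p = 0.17). Gbp10 had at most 12 UMIs in a macrophage-gated sum, shared every terminal window with other genes and was too low to be tested there.

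The change was also seen barcode by barcode. When macrophage-gated barcodes were thinned to 2000 UMIs each, so that depth did not differ, at least 1 member was detected in 27.3% and 29.8% of barcodes in WT and in 64.9% and 58.4% in KO. The widest exact binomial 95% interval of these shares, for KO 2, ran from 56.9% to 59.9%, and it covers counting error only. Thinning left out 559, 255, 1562 and 598 shallower barcodes in WT 1, WT 2, KO 1 and KO 2. Unthinned, the shares were 66.0% and 70.9% in WT and 91.4% and 92.2% in KO. At least 3 different members were found in 2.92% and 2.82% of thinned barcodes in WT and in 14.5% and 10.9% in KO. No immune type is known to lack these genes, so a share from free RNA could not be set beside these values.

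**Figure D2:**
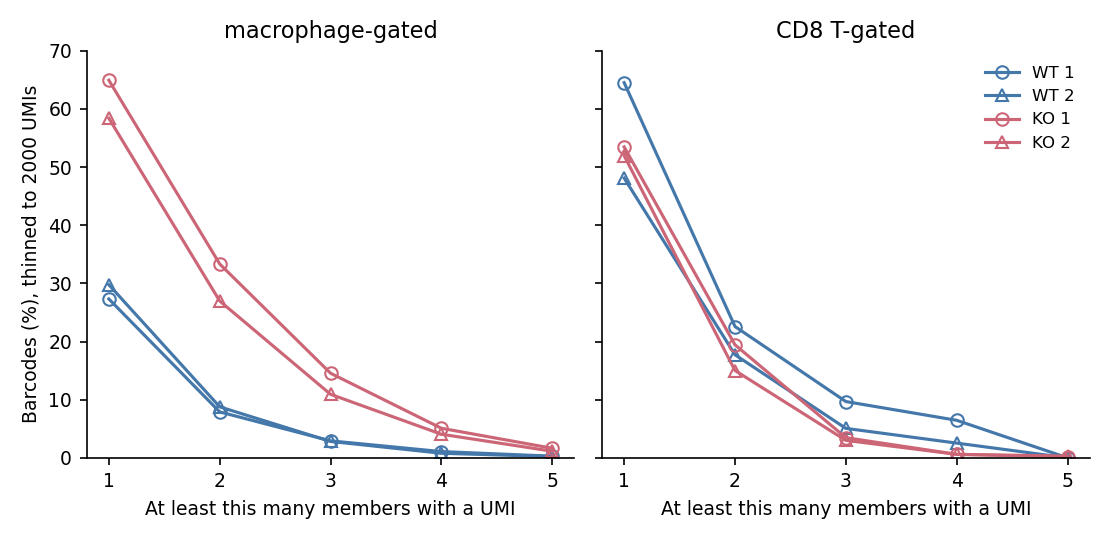
Percent of barcodes, thinned to 2000 UMIs, in which at least the given number of members had a UMI, for macrophage-gated and CD8 T-gated barcodes, with 1 line for each library. At 1 member the macrophage-gated libraries stand at 27.3% and 29.8% in WT and 64.9% and 58.4% in KO, while the CD8 T-gated libraries run from 48.1% to 64.5% with WT and KO intermixed.

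Macrophages in these tumours differ among themselves, so the comparison was repeated inside subsets of macrophage-gated barcodes formed by pairs of detected genes. A barcode could fall into several, and detection of a pair depends on depth. Barcodes with Chil3 and Ear2 (23 and 19 in KO) and with Lyve1 and Cd163 (4 and 15 in KO) were too few to be tested. Both pairs still count among the named subsets. All 8 members rose in cycling barcodes (9.68% of genes called higher), in those with Fcrls and Cx3cr1 (2.45%), with Mmp12 and Mmp13 (3.4%), with Arg1 and Inhba (6.34%), and in those of none of the named subsets (3.96%). In the Fcrls and Cx3cr1 subset, 4 of the 8 passed without WT 1, 5 with the replicate number as a block, and 0 of the 7 that could be tested when barcodes were thinned to 2000 UMIs. The matrix metalloproteinase subset went from 170 and 188 CPM of summed members in WT to 704 and 602 CPM in KO. The subset with Arg1, the arginase of alternatively activated macrophages, and Inhba, the activin A subunit, went from 189 and 199 CPM to 771 and 606 CPM. There Gbp6 had 4 UMIs in WT 1 and an adjusted p of 0.0448. It missed the threshold with DESeq2 (adjusted p = 0.0801) and without the filter on low counts (adjusted p = 0.148). The same held with the replicate block (adjusted p = 0.134) and without the top 10% of UMIs (adjusted p = 0.0623). Gbp9 missed it with the block (adjusted p = 0.06) and thinned (adjusted p = 0.573). With 1 library left out, the log2 change in this subset ranged from 2.03 to 4.70 for Gbp6 and from 1.69 to 2.27 for Gbp8. Neither gene kept its call in every such fit. The change of Gbp9 in the Mmp12 and Mmp13 subset then ranged from 0.96 to 1.53, and its call was not always kept either.

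Barcodes with C3, the central complement protein, and Vcam1, an adhesion molecule, stood apart in level. Their summed members were at 822 and 510 CPM in WT and at 1087 and 812 CPM in KO, so that WT 1 lay above KO 2 and the genotypes overlapped. In this subset 3 of 8 members rose (2.54% of genes called higher): Gbp4 with a log2 change of 1.71 ± 0.17 (adjusted p = 0.00133), Gbp6 with 1.51 ± 0.26 (adjusted p = 0.0123) and Gbp8 with 1.43 ± 0.27 (adjusted p = 0.0404). Without WT 2, Gbp6 and Gbp8 missed the threshold (adjusted p = 0.104 and 0.179), which left Gbp4, 0 of 6 tested members passed when thinned, and with the replicate number as a block Gbp2 and Gbp5 passed as well, which gave 5. Gbp2 there was at 334 and 184 CPM in WT and at 466 and 331 CPM in KO (adjusted p = 0.187). Gbp7 was at 214 and 156 CPM in WT and at 200 and 165 CPM in KO (adjusted p = 0.608). The subset held 160 and 290 barcodes in WT and 991 and 532 in KO. Whether its changes differ from those of the other subsets was not tested.

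**Figure D3:**
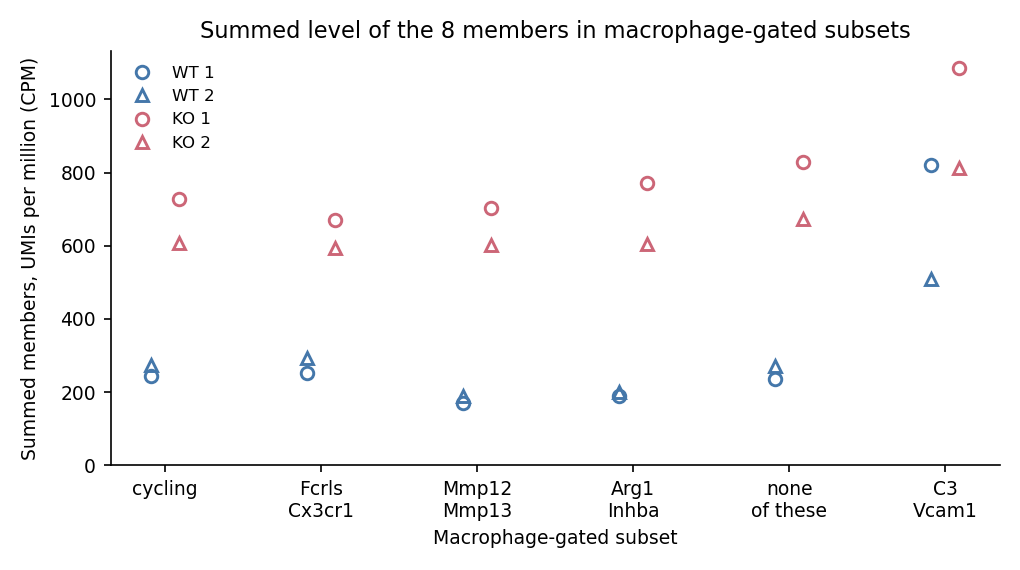
Summed level of the 8 members in CPM, by library, for the 6 macrophage-gated subsets tested. The genotypes are apart in 5 subsets, for example 189 and 199 CPM in WT against 771 and 606 CPM in KO for Arg1 Inhba, and overlap for C3 Vcam1, with 822 and 510 CPM in WT and 1087 and 812 CPM in KO.

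Across types the family's level did not follow a single order in both genotypes. Summed members in WT averaged 619 CPM in monocyte-gated, 604 in CD4 T-gated, 355 in CD8 T-gated, 354 in neutrophil-gated, 251 in macrophage-gated, 152 in NK-gated and 137 in dendritic-gated barcodes. Monocyte-gated and CD4 T-gated values overlapped. Neutrophil-gated values of WT, 643 and 65.3 CPM, spanned or overlapped those of every other type in this order, so their place in this order is not set. In KO the order was neutrophil-gated at 1656 CPM, monocyte-gated at 1214, macrophage-gated at 719, CD4 T-gated at 653, dendritic-gated at 469, and CD8 T-gated and NK-gated both at 406. In KO macrophage-gated overlapped with CD4 T-gated, dendritic-gated with CD8 T-gated, and CD8 T-gated with NK-gated barcodes. Macrophage-gated barcodes carried 66.0% to 75.6% of all member UMIs of a library and 62.3% to 70.5% of its UMIs. Barcodes that met no gate carried 16.9% to 22.6% of the member UMIs. Their summed members were at 123 and 139 CPM in WT and at 671 and 602 CPM in KO. The ratio of the means was 4.85 in them and 2.87 in macrophage-gated barcodes. They were not tested as a group.

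**Figure D4:**
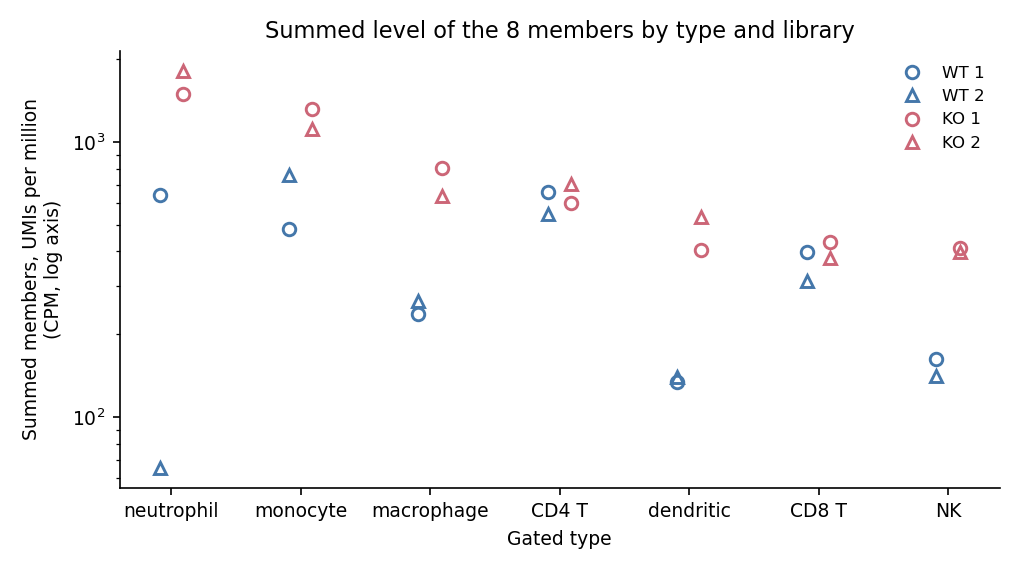
Summed level of the 8 members in CPM, on a log axis, by gated type and library. Macrophage-gated, monocyte-gated, dendritic-gated and NK-gated libraries separate by genotype, CD4 T-gated and CD8 T-gated libraries do not, and neutrophil-gated WT libraries lie far apart at 643 and 65.3 CPM.

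The use of the individual genes also differed between types. Gbp2 gave 43.0% to 50.4% of member UMIs in monocyte-gated barcodes of the 4 libraries, but 6.10% and 7.78% in CD8 T-gated barcodes of WT. Gbp4 gave 26.8% and 24.4% of member UMIs in CD8 T-gated barcodes of WT, where in macrophage-gated barcodes of WT it gave 6.58% and 6.89%. Gbp5 gave 15.5% to 23.8% in dendritic-gated barcodes.

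Monocytes, the precursors of tumour macrophages, were at a high level of the family already in WT. Of the 8 members, 2 rose in monocyte-gated barcodes, where 1.38% of genes were called higher. Gbp4 was at 31.2 and 49.8 CPM in WT and at 129 and 106 CPM in KO, a log2 change of 1.61 ± 0.21 (adjusted p = 0.00328). Gbp7 was at 80.2 and 95.4 CPM in WT and at 169 and 146 CPM in KO, a log2 change of 0.90 ± 0.14 (adjusted p = 0.00707). Both KO libraries exceeded both WT libraries for each gene. In the same sums the neutrophil list went from 1745 and 1237 CPM in WT to 3287 and 3244 CPM in KO and the monocyte list from 1782 and 1503 CPM to 1194 and 1104 CPM, and their part in these changes was not tested.

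For Gbp2 the WT monocyte-gated libraries were far apart, at 207 and 381 CPM, with KO at 663 and 551 CPM (adjusted p = 0.383). The count of called members depended on which library was left out, and so did the count of all called genes. With 1 library left out, the change of Gbp2 ranged from 0.70 to 1.62 on the log2 scale. The difference between the changes in the macrophage-gated and monocyte-gated barcodes was then tested directly, in 1 model over both types with library as a block. The change in macrophage-gated barcodes exceeded that in monocyte-gated ones by 0.90 ± 0.12 on the log2 scale for Gbp2 (adjusted p = 5.09e-05), by 0.82 ± 0.18 for Gbp4 (adjusted p = 0.00475) and by 0.72 ± 0.19 for Gbp9 (adjusted p = 0.0416), in a test that called 1.74% of genes. The other 5 members missed the threshold. Without WT 2, Gbp2 alone of these 3 passed. Gbp9 missed the threshold whichever library was left out, with adjusted p from 0.0554 to 0.277, and with total counts (adjusted p = 0.078). Without WT 2 the difference for Gbp4 was 0.59. Gbp4 missed the threshold with a C1q limit of 5 (adjusted p = 0.0605), with DESeq2 (adjusted p = 0.0683) and when thinned (adjusted p = 0.97). Gbp2 missed it without barcodes holding a lymphoid UMI (adjusted p = 0.08). In each of the settings in the last 2 sentences Gbp9 missed it as well.

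Dendritic cells take antigen to T cells. Their gated barcodes had low levels in WT and few barcodes, 203 and 201 in WT and 133 and 105 in KO. Of the 7 members tested, 1 rose, with 0.0991% of genes called higher. It was Gbp2, at 46.4 and 50.1 CPM in WT and at 167 and 240 CPM in KO, a log2 change of 2.17 ± 0.22 (adjusted p = 0.027). Gbp4 was at 4.89 and 8.06 CPM in WT and at 34.9 and 30.2 CPM in KO and missed the threshold (log2 change 2.41 ± 0.36, adjusted p = 0.0933). No member was called for a different change in macrophage-gated and dendritic-gated barcodes in the direct test by edgeR, which called 0.138% of genes, and no member had an unadjusted p under 0.05 in it. Without KO 1, 1 member passed that test, and the count of called members in dendritic-gated barcodes ranged from 0 to 6 over the other settings tried. A fibroblast list of 3 genes summed to 1130 and 529 CPM in dendritic-gated sums of WT and to 307 and 182 CPM in KO, and its part in these values was not tested.

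NK cells are a source of interferon gamma as well as a target of it. In NK-gated barcodes 4 of the 7 members tested rose, where 4.09% of genes were called higher. Gbp2 was at 34.6 and 11.0 CPM in WT and at 75.04 and 58.0 CPM in KO, a log2 change of 1.84 ± 0.45 (adjusted p = 0.0196). Gbp5 was at 4.94 and 11.0 CPM in WT and at 40.8 and 34.2 CPM in KO, a log2 change of 2.04 ± 0.52 (adjusted p = 0.0234). The genotypes did not overlap for either gene, but the WT values rest on 23 and 43 barcodes.

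Gbp7 changed by 1.30 ± 0.31 (adjusted p = 0.0156) and Gbp4 by 1.22 ± 0.34 (adjusted p = 0.0342) on the log2 scale in NK-gated barcodes. None of the 4 passed with DESeq2, nor without the 10% of barcodes of highest UMIs, where their changes were 0.38 for Gbp4, 0.63 for Gbp7, 1.31 for Gbp2 and 1.42 for Gbp5. Without KO 1, 2 members passed, and without KO 2, 1 passed. A list of 5 NK genes that the gate had not used summed to 3915 and 3744 CPM in WT and to 8476 and 9518 CPM in KO, and its part in the result was not tested.

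T cells were examined next. In CD8 T-gated barcodes, 33 and 89 in WT and 718 and 366 in KO, edgeR called none of the 8 members, where 0.333% of genes were called in either direction. At an unadjusted p under 0.05, 1 member passed, and DESeq2 called none. That member was Gbp2, at 24.3 and 24.2 CPM in WT and at 74.9 and 55.7 CPM in KO, a log2 change of 1.51 ± 0.32 (adjusted p = 0.0989). It passed in 5 of the 13 alternative settings run for this gate, among them the fit without KO 2 (adjusted p = 0.00567). A macrophage list of 6 genes summed to 666 and 507 CPM in CD8 T-gated sums of WT and to 1424 and 766 CPM in KO, and its part in the value of Gbp2 was not tested.

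Of the other members, Gbp3, Gbp4, Gbp5, Gbp6 and Gbp9 overlapped between the genotypes in CD8 T-gated barcodes. Gbp8 did not, at 24.3 and 29.4 CPM in WT and at 44.6 and 37.1 CPM in KO. Its log2 change was 0.63 ± 0.31 (edgeR adjusted p = 0.511). Gbp7 was at 122 and 109 CPM in WT and at 130 and 126 CPM in KO, also without overlap (adjusted p = 0.655). Gbp4 was at 107 and 76.2 CPM in WT and at 77.8 and 75.1 CPM in KO, a log2 difference of -0.09 ± 0.21 (adjusted p = 0.952) whose sign changed with the setting. The WT 1 value of Gbp4 rests on 22 UMIs. In the direct test the change of Gbp4 was larger in macrophage-gated than in CD8 T-gated barcodes by 2.44 on the log2 scale, with a 95% interval from 1.92 to 2.96 (adjusted p = 2.76e-10). That test called 1.24% of genes, and Gbp4 was its single member called, with every library left out in turn. For the other 7 members the difference ran from 0.43 for Gbp2 to 1.76 for Gbp6, with adjusted p from 0.14 to 0.891. Of these 7, all but Gbp2 had an unadjusted p under 0.05 in the same test, from 0.00284 for Gbp5 to 0.0359 for Gbp3. So had 472 genes with a larger and 539 with a smaller change in macrophage-gated barcodes, of 12425 tested.

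In CD4 T-gated barcodes, 90 and 106 in WT and 115 and 90 in KO, summed members were at 660 and 547 CPM in WT and at 602 and 705 CPM in KO, with the genotypes overlapping. None of the 8 members was called by edgeR, in a test that called 0.398% of genes, or by DESeq2, and 1 member had an unadjusted p under 0.05. Neutrophil-gated barcodes had median depths of 1431 to 1948 UMIs, and only 7 member UMIs were counted in WT 2. None of the 3 members tested there was called by edgeR, with 0% of genes called, or by DESeq2. All 3 had an unadjusted p under 0.05, as had 95 higher and 46 lower genes in all. With 1 library left out, the calls of members there changed, and so did the count of all called genes. The share of all genes called in each of those fits is not given.

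**Figure D5:**
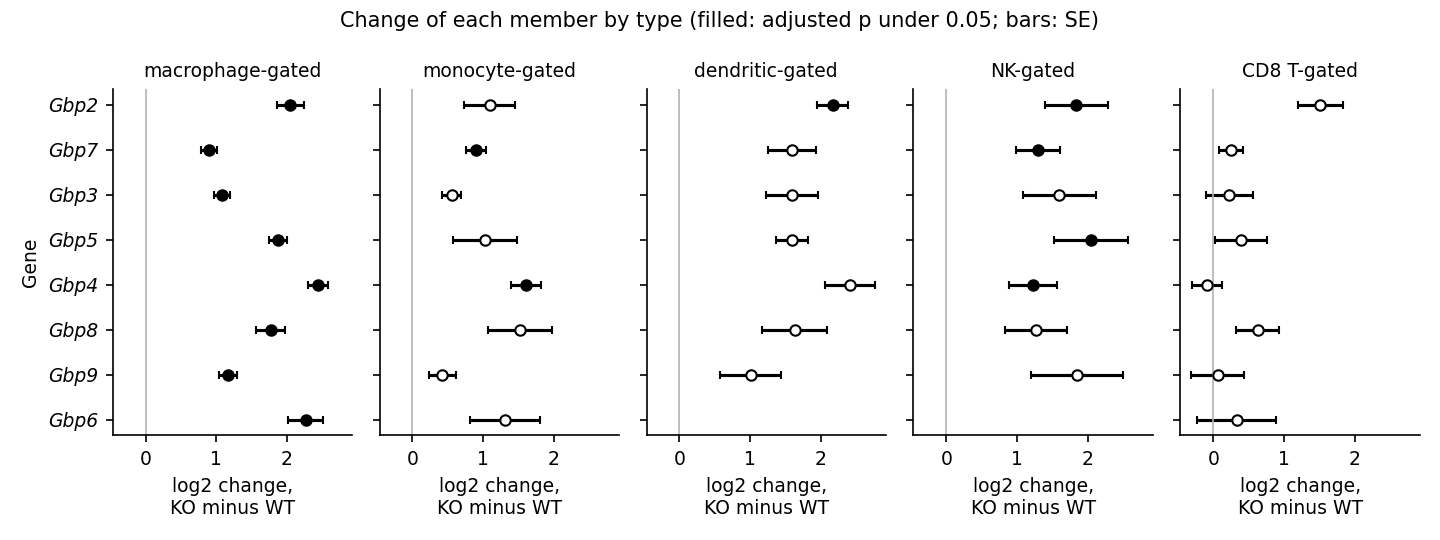
Log2 change, KO minus WT, of each member with its SE, by gated type, where filled points passed an adjusted p of 0.05. All 8 points are filled in macrophage-gated, 2 in monocyte-gated, 1 in dendritic-gated, 4 in NK-gated and none in CD8 T-gated barcodes, where Gbp4 lies at -0.09 and Gbp2 at 1.51.

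Over all barcodes of a library, which also take in changes of cell make-up, the 8 members rose, with 4.36% of genes called higher, and their sum was at 205 and 232 CPM in WT and at 775 and 636 CPM in KO. None of the 8 passed without WT 1, while 6 passed without WT 2 and 7 without KO 1.

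The genes around the family in its pathway were examined in macrophage-gated barcodes. Of 14 genes of interferon gamma signalling, 7 rose and none fell, with a median log2 change of 0.40. Socs1, the feedback inhibitor of the receptor's kinases, changed by 1.87 ± 0.12 (adjusted p = 0.000603). Irf1, an interferon-induced factor that drives Gbp genes, was at 41.4 and 40.9 CPM in WT and at 138 and 106 CPM in KO.

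Ifng, the ligand, is made chiefly by T and NK cells. It was at 0.0172 and 0.270 CPM in macrophage-gated sums of WT and at 3.75 and 2.40 CPM in those of KO, where the WT 1 value is 1 UMI, a log2 change of 4.43 ± 0.79 (adjusted p = 0.0397). In CD8 T-gated barcodes Ifng was at 214 and 282 CPM in WT and at 773 and 1346 CPM in KO, a log2 change of 2.14 ± 0.30 (adjusted p = 0.0388). A list of 5 CD8 T cell genes summed to 2.06 and 5.13 CPM in macrophage-gated sums of WT and to 47.9 and 26.3 CPM in those of KO, with 5 of 5 genes higher in both KO libraries and none at 0 throughout. With every macrophage-gated barcode holding a lymphoid UMI left out, the changes of the members ran from 0.91 for Gbp7 to 2.48 for Gbp4 on the log2 scale.

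The immunity-related GTPases, the other interferon-induced GTPases that act on vacuoles, were higher in KO too. Of 11 genes of their list in the files and tested, 10 rose and none fell, with a median of 1.81. The list also held Gvin1, a very large interferon-induced GTPase of another family. Iigp1 was at 41.1 and 45.0 CPM in WT and at 268 and 216 CPM in KO, a log2 change of 2.62 ± 0.13 (adjusted p = 0.000339). F830016B08Rik changed by 2.25 ± 0.23 and Tgtp1 by 2.14 ± 0.43, and the near-identical Tgtp2 leaves the split of reads with Tgtp1 uncertain. Of 8 dynamin-related and atlastin GTPases outside the interferon response none was called, where 6.31% of all genes were called higher, and their median was -0.05.

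Of 14 inflammasome genes, through which guanylate-binding proteins act, 6 rose and none fell, with a median of 0.28. Casp4, which senses bacterial lipopolysaccharide in the cytosol, changed by 1.14 ± 0.13 (adjusted p = 0.00368). Casp1 changed by 0.82 ± 0.11 (adjusted p = 0.00592), and Gsdmd, the pore-forming substrate of both, by 0.65 ± 0.12 (adjusted p = 0.0148).

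Of 13 genes of the ATG8 conjugation system and its receptors, which guides these GTPases to vacuoles, 2 rose, with a median of 0.19, where 6.31% of all genes were called higher. They were Tax1bp1 (log2 change 0.45 ± 0.11, adjusted p = 0.0415) and Sqstm1 (0.42 ± 0.10, adjusted p = 0.0351), both cargo receptors of autophagy. Of 18 type I interferon-stimulated genes, 7 rose and none fell, with a median of 0.52. The called genes with the largest changes were Ifi44 at 1.51 ± 0.23, Rtp4 at 1.04 ± 0.12 and Irf7 at 1.02 ± 0.19. The median of all genes tested was -0.01.

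Outside macrophages the same lists had fewer calls, but not always smaller changes. The median log2 change of immunity-related GTPases was 1.84 in dendritic-gated, 1.57 in NK-gated and 1.20 in monocyte-gated barcodes, against 1.81 in macrophage-gated ones. It was 0.25 in CD8 T-gated and 0.36 in CD4 T-gated barcodes. For interferon gamma signalling the medians were 0.67, 0.68, 0.22, 0.40, 0.38 and 0.34 in the same order. Of its 14 genes, 4 rose in NK-gated barcodes. In CD8 T-gated barcodes 1 gene of interferon gamma signalling rose, Ifng itself, and none of 7 immunity-related GTPases tested. In dendritic-gated barcodes 4 of 8 immunity-related GTPases tested rose, with Iigp1 at 14.3 and 11.6 CPM in WT and at 99.1 and 132 CPM in KO. With total counts as the scaling, 1 gene in all was called higher in dendritic-gated barcodes, where TMM gave 10. In monocyte-gated barcodes 2 of 10 rose (1.38% of all genes), and in NK-gated barcodes 2 of 5 (4.09% of all genes). Igtp was among the called genes in each of these 3 types.

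Finally, genes were ranked by how closely their level followed the summed members over 28 sums, 7 types in 4 libraries, on the scale of log2 of CPM plus 1. Among 9470 genes that are not members, the Pearson correlation was highest for Ifi47, an immunity-related GTPase, at 0.925. Also among the 5 highest were Zbp1, a sensor of Z-form nucleic acids, at 0.862, B2m, the light chain of MHC class I, at 0.844, and Slfn8 at 0.842. Between members it ran from -0.03 for Gbp2 with Gbp8 to 0.84 for Gbp4 with Gbp7. The sums of a library share that library and its depth, so these values are descriptions.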

How the data were processed

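The authors deposited raw UMI counts, 1 matrix of genes by barcodes for each library. Cell Ranger is named as version 5.0.0 in the headers of the files, and as 5.0.1, with Seurat 3.15 and the mm10 build, per the submitters' processing notes. Counts were made from the 3' end of transcripts, per the labels' protocols. The sources used here do not state how cells were called. The molecule is labelled genomic DNA, while cDNA libraries are described in the protocol.

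A barcode was kept if it had 200 or more genes and no more than 20% mitochondrial UMIs. Gates on marker genes then assigned types, with macrophage-gated barcodes at 10 or more UMIs of C1qa, C1qb and C1qc per 10000. Barcodes of 2 gates were left out, no other doublet filter was used, and free RNA was not removed. Barcodes that met no gate, between 2644 and 5322 a library, enter the tests through the sums over all barcodes alone. UMIs were summed per library and type, because cells are not replicates, and types with at least 20 barcodes in each library were tested. Sums ran from 61074 UMIs in neutrophil-gated barcodes of KO 2 to 91105942 in macrophage-gated barcodes of KO 1, and small sums limit the changes that could be called.

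KO was compared with WT by edgeR 4.0.16 in R 4.3.3 (filterByExpr, TMM, robust quasi-likelihood test, two-sided, Benjamini-Hochberg over all genes tested, threshold 0.05). Differences between types were tested as the type by genotype term with library as a block. DESeq2 1.42.0 and 13 other settings served as alternatives. With 2 libraries against 2, an exact permutation test cannot go below 0.333, so none is given. Sums and gates were computed in Python 3.11.15. All 8 members are named, with other family symbols apart, up to 3 called genes with the largest change from each of 6 pathway lists, and the 5 genes most alike, except for items that are not reported here. Lists, members and rules were chosen with earlier results of these data known. Irf1 and the genes named outside macrophages were added after their values had been seen. Coordinates come from GENCODE M21 for mm10.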

Additional observations from a re-analysis of the deposited data

Results flagged for a closer look

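In 4 cases the change of a member between the genotypes differed between types in the direct test of that difference. For Gbp4 the log2 change in macrophage-gated barcodes exceeded that in CD8 T-gated barcodes by 2.44. Against monocyte-gated barcodes the macrophage-gated change was larger by 0.90 for Gbp2, by 0.82 for Gbp4 and by 0.72 for Gbp9. The difference for Gbp9 missed the threshold whichever library was left out (adjusted p from 0.0554 to 0.277), and that for Gbp4 missed it without WT 2 (adjusted p = 0.209). The groups hold 2 libraries each, too few to test single libraries as outliers.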

How the results depend on the processing

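In macrophage-gated barcodes the 8 members were called under each of the 14 alternatives except the fits without WT 1 and without WT 2, which lost Gbp8, and their log2 changes ranged from 1.84 to 2.31 for Gbp2, 2.30 to 2.61 for Gbp4 and 0.76 to 1.03 for Gbp7. Of 1455 recomputed log2 changes, 1280 kept direction and side of the threshold, 98 lost the call, 61 gained one and 16 reversed. Single changes in CD4 T-gated and neutrophil-gated barcodes, and in the direct test against dendritic-gated barcodes, were not among them. Of 155 recomputed counts of called members, 116 stayed within 1.5 times. Thinning to 2000 UMIs gave 27 called subset and member pairs, in place of 43 of 48, and 4 called members in monocyte-gated barcodes. Fewer pairs could be tested when thinned, with 7 members in Fcrls Cx3cr1, 7 in Mmp12 Mmp13 and 6 in C3 Vcam1. In dendritic-gated barcodes 0 members were called with total counts, with a C1q limit of 5 and thinned, 3 without the filter on low counts and without lymphoid UMIs, and 4 with DESeq2 and without the top 10% of UMIs. In NK-gated barcodes 0 were called with DESeq2 and without the top 10% of UMIs, and 7 with a C1q limit of 20. In CD8 T-gated barcodes 1 was called without the filter and with C1q limits of 5 and 20, and in neutrophil-gated barcodes 2 without the filter. The direct test against monocyte-gated barcodes called 1 member with DESeq2, without lymphoid UMIs and thinned, and that against dendritic-gated barcodes 1 without the top 10% of UMIs and 1 thinned. The cause was not tested.

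Leaving out 1 library gave 0 to 8 called members over all barcodes, 7 to 8 in macrophage-gated, 1 to 7 in monocyte-gated, 1 to 5 in dendritic-gated, 0 to 3 in neutrophil-gated, 0 to 1 in CD8 T-gated, 0 in CD4 T-gated and 1 to 4 in NK-gated barcodes, and 36 to 43 pairs over subsets. The direct tests gave 1 to 3 against monocyte-gated, 0 to 1 against dendritic-gated and 1 against CD8 T-gated barcodes.

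Nothing in the labels says that libraries of the same number are paired, and their deviations correlated at 0.117 over all barcodes. With the replicate number as a block, 0 members were called over all barcodes, 6 in dendritic-gated, 2 in NK-gated and 1 in CD8 T-gated barcodes. The direct tests have no such fit, since library is already their block. NK-gated and neutrophil-gated barcodes gave no value where a setting left under 20 barcodes in a library.

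Among the recomputed changes, which left out those in CD4 T-gated and neutrophil-gated barcodes, reversals fell mostly on small changes in CD8 T-gated barcodes. Gbp9 went to -0.015 with total counts, -0.043 with the replicate block, -0.024 without the top 10% of UMIs and -0.73 thinned, and ranged from -0.19 to 0.23 with 1 library left out. Gbp4 went to 0.027 with a C1q limit of 5 and 0.025 with 20, and ranged from -0.32 to 0.066 with 1 library left out. Gbp3 went to -0.23 thinned and ranged from -0.34 to 0.60, Gbp5 ranged from -0.012 to 0.64, and Gbp8 went to -0.16 thinned. Gbp5 went to -0.038 thinned in dendritic-gated barcodes, and Gbp7 to -0.014 with total counts in the C3 Vcam1 subset. The macrophage minus monocyte difference of Gbp7 ranged from -0.14 to 0.072 with 1 library left out. Counts of all called genes moved more, from 729 to 1798 in macrophage-gated, 0 to 2602 over all barcodes, 2 to 1243 in dendritic-gated, 8 to 1041 in NK-gated, 53 to 660 in monocyte-gated, 0 to 283 in CD8 T-gated, 6 to 131 in CD4 T-gated and 0 to 55 in neutrophil-gated barcodes, against main counts of 1330, 792, 11, 659, 148, 28, 25 and 0. Over the 6 subsets they lay between 40 and 2696, and in the direct tests between 7 and 696.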
